A study of Arabidopsis with 6 samples.

Results

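The genes described here are 36 nuclear loci of Arabidopsis that encode subunits of photosystem I, photosystem II and the chloroplast ATP synthase, the mobile and fixed electron carriers that link them, and a pair of proteins of cyclic electron flow. The 36 loci were taken by identifier from a list by name of complex, with no measured value in the rule. Earlier results of these data were known when the list was made. Of these, 30 were listed among the 19763 genes of the deposited tables, and all 30 had an FPKM above the filter of 1 in at least 1 library, as did 18441 genes in all. By complex, 11 of 13 photosystem I genes, 8 of 11 photosystem II genes, 7 of 7 electron carrier genes, 2 of 3 ATP synthase genes and 2 of 2 cyclic flow genes were listed. PSAD2 (AT1G03130), PSAG (AT1G55670), PSBP1 (AT1G06680), PSBW (AT2G30570), PSBX (AT2G06520) and ATPG (AT4G32260) were not analysed here.

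RNA was measured in 6 libraries, 1 for each of 6 groups. The PCD8 RNAi-21 line and the wild type (WT) each spent 4 days in darkness, and RNA was taken with no light (0 h) or after 0.5 or 2 h of it. The labels give 1 RNAi line, and they give neither the promoter of the RNAi construct nor the number of plants in a library. No listed locus carried the name PCD8, so the targeted gene was not analysed here and the RNAi labels were not checked against it. The deposited design compares RNAi-21 with WT in darkness and at each light time. The tables were taken to hold FPKM, a transcript abundance scaled for transcript length and library size, although no file names the unit. Every difference is one of log2(FPKM + 1), so that changes of low genes come out smaller than they are. With 1 library per group, a single comparison has no replicate error and no test.

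In plants, photosystem II takes electrons from water and passes them through the cytochrome b6f complex and plastocyanin to photosystem I, which reduces ferredoxin. Ferredoxin-NADP reductase then makes NADPH, and the ATP synthase uses the proton gradient built up along the chain to make ATP. The reaction-centre proteins are encoded in the plastid, while the peripheral subunits, plastocyanin, ferredoxin and the reductase are encoded in the nucleus. Dark-grown seedlings hold plastids without developed photosynthetic membranes, and the nuclear genes of these complexes are known to be induced when such seedlings first meet light.

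The library medians over all listed genes lay between 9.29 and 9.81 FPKM. The WT library at 0.5 h stood apart in transcripts of seed storage proteins: the 11 listed of 12 such markers summed to 22.3, 47.4 and 80.8 FPKM at 0, 0.5 and 2 h in RNAi-21, against 15.8, 235 and 24.9 FPKM in WT, and none was listed at 0. Root markers were abundant although the tissue label is leaf, with 11 of 12 listed, none at 0, and sums between 8219.8 and 9212 FPKM in RNAi-21 and between 5917 and 6963 FPKM in WT. PYK10, a beta-glucosidase of root endoplasmic reticulum bodies, carried most of that sum, with 5994, 5703 and 6889 FPKM at 0, 0.5 and 2 h in RNAi-21, against 3968, 3478 and 4936 FPKM in WT, while 6 of the 10 kept root markers were lower in RNAi-21 at each time. The 10 leaf mesophyll markers were all listed, none at 0, and summed to 3018, 2393 and 6394 FPKM in RNAi-21, against 2897, 3466 and 5683 FPKM in WT. In such whole-tissue samples, fewer cells of a type and less RNA per cell cannot be told apart.

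The photosynthetic genes were well above the typical gene already in darkness. Their median at 0, 0.5 and 2 h was 122, 116 and 293 FPKM in RNAi-21, against 131, 170.0 and 239 FPKM in WT. Summed over the 30 genes, the level was 4159.8, 3749.8 and 11359 FPKM in RNAi-21, against 4851, 5629 and 9350.1 FPKM in WT. RNAi-21 was thus the lower genotype at 0 and 0.5 h and the higher one at 2 h. At 0 h the lowest of the 30, FNR2, lay at percentile 52.2 of all listed genes in RNAi-21 and 53.2 in WT, and the highest, PSBR, at percentiles 99.2 and 99.3.

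**Figure D1:**
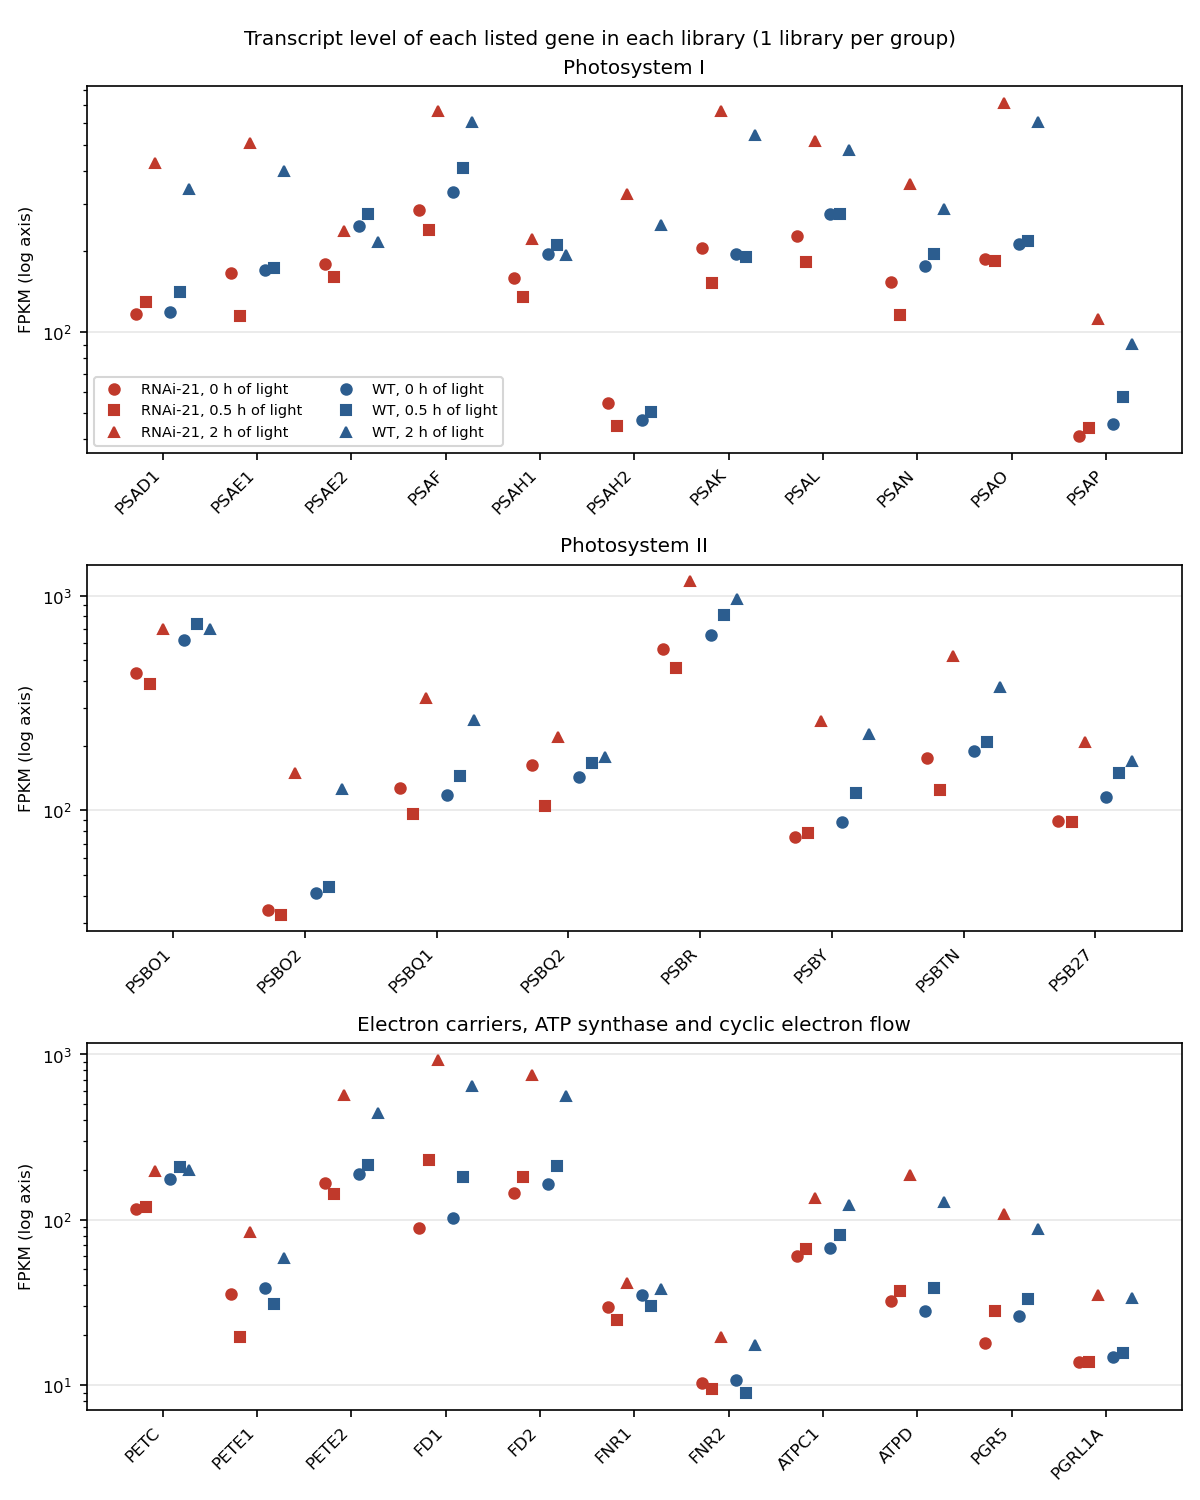
FPKM (log axis) of each of the 30 listed genes in each of the 6 libraries, with RNAi-21 in red left of WT in blue and the light time given by the marker shape. In most genes the 2 h triangles lie highest in both genotypes, and the red 0.5 h squares lie below the blue ones, whereas FD1 has its red square above the blue one.

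After 2 h of light, the median of every complex was above its dark value in both genotypes. Of the 30 genes, 30 were above their dark level in RNAi-21 and 28 in WT, where PSAE2 and PSAH1 had responses of -0.19 and -0.01. The median response on the log2 scale was 1.34 in RNAi-21 and 0.98 in WT, while the medians over all 18441 genes were -0.04 and -0.02. In RNAi-21, 23 of the 30 genes were at least 2-fold above the dark library, against a background of 8.85% of all genes. In WT, 14 of the 30 were, against a background of 7.8%. The limma fit, which takes the genotypes as repeats of the light response, gave a rise at 2 h (adjusted p under 0.05) in 24 of the 30 genes and a fall in 0, where 17.1% of all genes rose. All 30 effects were above 0, 25 of them with an unadjusted p under 0.05, where 7973 of all 18441 genes were under it. The effects at 2 h come from the 0 and 2 h libraries alone, so leaving out the WT library at 0.5 h changes only their error. The genes that rose were 9 of 11 of photosystem I, 6 of 8 of photosystem II, 5 of 7 electron carriers, both ATP synthase genes and both cyclic flow genes. PSAE2, PSAH1, PSBO1, PSBQ2, PETC and FNR1 did not pass. With library totals equalised the share of all genes above 0 in RNAi-21 at 2 h was 35.4% in place of 46.2%, and relative to the median of all genes the members lay 1.37 higher in place of 1.39. Without a library left in darkness for those 2 h, a light effect and an effect of elapsed time cannot be told apart. The error of this fit is the departure from an equal response in both genotypes, not the spread between plants.

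With the deposited scaling, the 2 h response was numerically larger in RNAi-21 than in WT for all 30 genes. Over all genes, 51.7% had the larger response in RNAi-21. These counts are given for that scaling only. Equalising library totals took the median 2 h response from 1.34 to 1.18 in RNAi-21 and from 0.98 to 0.99 in WT, so narrow gaps depend on the scaling. The widest gaps were in PGR5, with responses of 2.52 in RNAi-21 and 1.72 in WT, and in FD1, with 3.36 and 2.64. The narrowest was in PSBQ2, with 0.42 in RNAi-21 and 0.32 in WT. Of the 30 genes, 14 reached 2-fold in both genotypes, 9 reached it in RNAi-21 while staying under it in WT, and 7 stayed under it in both. For this split no joint share of all genes is given, only the 8.85% in RNAi-21 and 7.8% in WT for each genotype alone. The split also depends on the cutoff, since 26 genes reached 1.5-fold in RNAi-21 and 22 in WT. The gaps between the genotypes were not tested, since each rests on 1 library per group.

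Over the first 0.5 h of light the changes were small, and their medians had opposite signs in the genotypes. In RNAi-21 the median response was -0.17 and 21 of the 30 genes were below 0, against a background of 54.3%. In WT the median was 0.20 and 25 of the 30 genes were above 0, against a background of 51.8%. With library totals equalised the shares of all genes above 0 were 59.4% in RNAi-21 and 63.3% in WT, in place of 45.6% and 51.8%, and 18 genes were below 0 in RNAi-21 and 27 above 0 in WT. Of the 30 genes, 16 were below 0 in RNAi-21 and above 0 in WT, a pattern seen in 23.5% of all genes, and 0 showed the reverse. A further 9 were above 0 in both genotypes and 5 below 0 in both. In limma, FD1 was the only one of the 30 to rise at 0.5 h, where 1.24% of all genes rose, and 0 fell. An unadjusted p under 0.05 was seen in 2 of the 30, where 2193 of all 18441 genes were under it. Without the WT library at 0.5 h the FD1 effect was 1.18 and rested on the RNAi-21 library alone at that time. That WT library stood apart in seed storage transcripts, and the WT response at 0.5 h rests on it. Responses at 0.5 and 2 h in a genotype share its dark library.

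**Figure D2:**
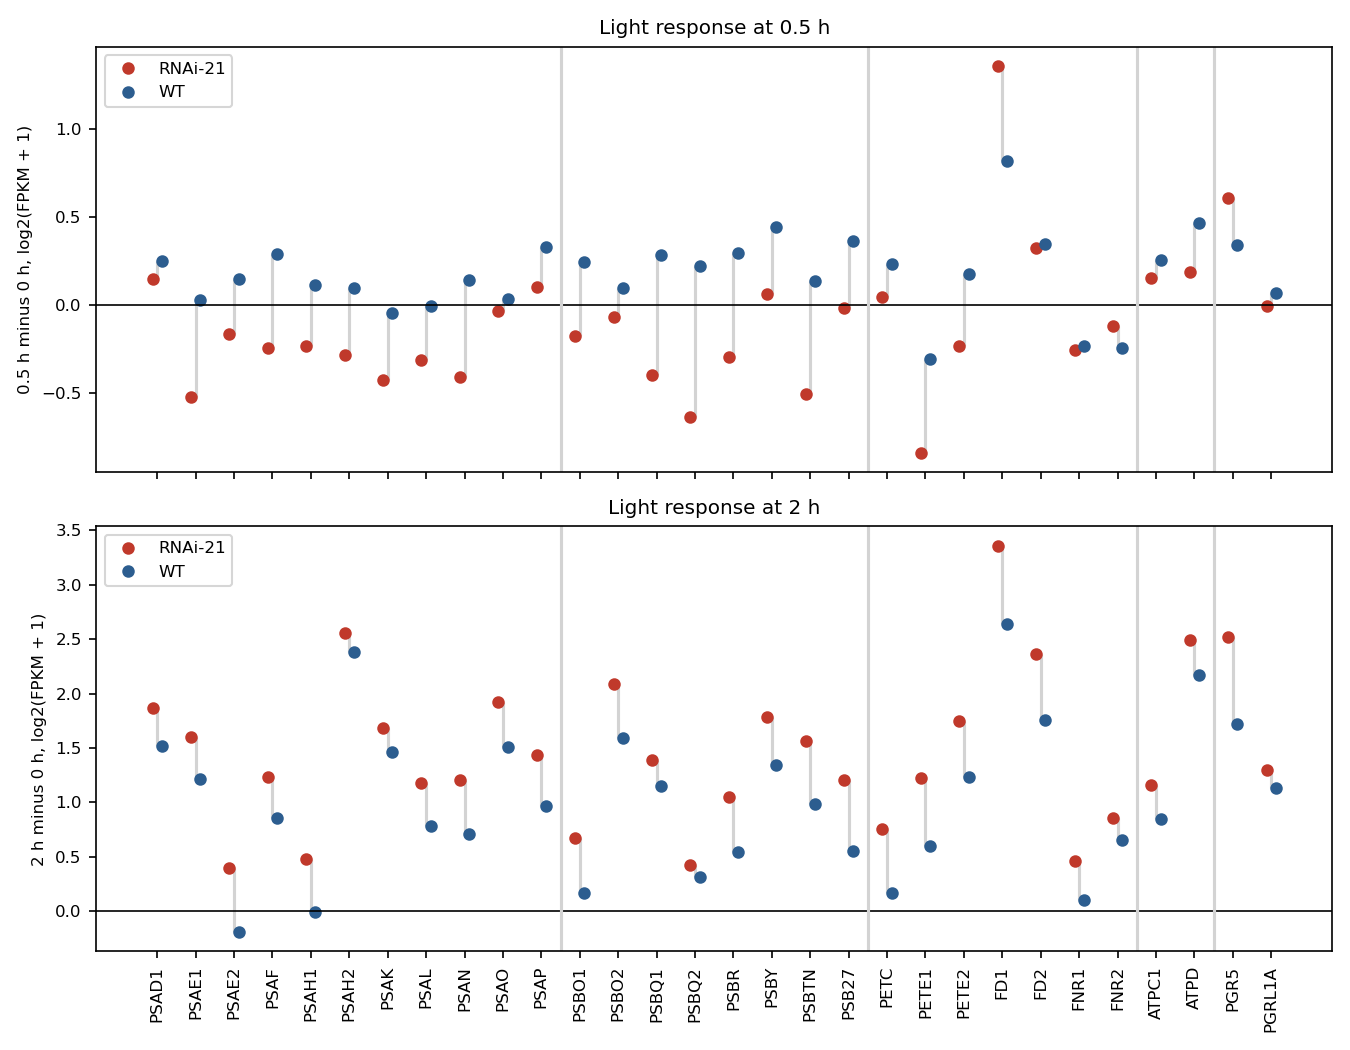
Change on the log2(FPKM + 1) scale between each light time and 0 h for each of the 30 genes, with RNAi-21 in red left of WT in blue, joined by a grey line, and vertical lines between the complexes. At 0.5 h the red points lie below the blue ones except in FD1, PGR5 and FNR2, and at 2 h all 30 red points lie above the blue ones.

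Between the genotypes, the 30 genes were slightly lower in RNAi-21 in darkness. The median difference at 0 h was -0.19, against -0.01 over all genes, and 25 of the 30 were below 0, against a background of 51.3%. With library totals equalised, 22 of the 30 were below 0 while the share of all genes above 0 was 58.0% in place of 48.6%. PETC was the 1 gene at least 1.5-fold lower, where 1.81% of all genes were, and none differed by 2-fold either way, against 0.564%. Differences ranged from -0.60 in PETC to 0.21 in ATPD, which was one of 5 genes above 0.

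At 0.5 h the median difference was largest in size. The median was -0.58, against -0.03 over all genes, and 28 of the 30 genes were below 0, against a background of 54.5%. Of the 30 genes, 13 were at least 1.5-fold lower in RNAi-21, where 2.4% of all genes were, and none differed by 2-fold, against 1.27%. They were PSAE1, PSAE2, PSAF, PSAH1 and PSAN of photosystem I, PSBO1, PSBQ2, PSBR, PSBY, PSBTN and PSB27 of photosystem II, and PETC and PETE1 of the carriers. PSAL, PSBQ1 and PETE2 lay just short of that fold, each at -0.58. FD1 at 0.34 and FNR2 at 0.07 were the genes above 0. By complex the median was -0.58 in photosystem I, -0.70 in photosystem II, -0.26 in the electron carriers, -0.17 in ATP synthase and -0.20 in cyclic flow.

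Values that moved with this contrast are given beside it. At 0.5 h the 10 leaf mesophyll markers had a median difference of -0.44, also lower in RNAi-21, and the summed seed storage markers were 47.4 FPKM in RNAi-21 and 235 FPKM in WT. Their part in the result was not tested. When the dark WT library was put in place of the WT library at 0.5 h, a comparison chosen after seeing the data, the median was -0.37, against -0.01 over all genes. Its 2 sides differ in light time as well as in genotype. In that comparison 25 of 30 genes were below 0, where 51.5% of all genes were, and 6 were at least 1.5-fold lower, where 4.95% of all genes were.

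At 2 h the difference had the other sign. The median was 0.29, against -0.02 over all genes, and 28 of the 30 genes were higher in RNAi-21, against a background of 47.1%. None was at least 1.5-fold higher, where 3.04% of all genes were, and none differed by 2-fold, against 0.797%. Differences ranged from -0.02 in PETC to 0.53 in ATPD. With library totals equalised the median was 0.17 with 27 genes above 0, and 33.0% of all genes were above 0. That scaling moved the median of all genes to -0.12, and relative to it the members lay 0.29 higher, where they lay 0.31 higher with the deposited scaling. The root markers, whose sum rested largely on PYK10, had a median difference of -0.08 over their 10 kept genes at 2 h. The leaf mesophyll markers had one of 0.14, with 8 of 10 above 0, against -0.44 at 0.5 h. For the seed storage markers it was 0.88, with 10 of 11 above 0, against -1.96 at 0.5 h. Both of these lists thus changed sign as the 30 genes did, and their part in the result was not tested.

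The change of sign between 0.5 and 2 h was shared by most of the set. Lower values in RNAi-21 at 0.5 h with higher ones at 2 h were seen in 26 of the 30 genes, where 20.9% of all genes showed this. Lower values at both 0 and 0.5 h with higher ones at 2 h were seen in 21 of the 30, where 15.1% of all genes did. The limma genotype effect, which asks for an equal difference at every time, passed in 0 of the 30 genes, where 0.168% of all genes passed, and the smallest adjusted p among the 30 was 0.30. At an unadjusted p under 0.05, 2 of the 30 were below 0, PSBO1 and PETC, where 2294 of all 18441 genes were under it. PSBO1 had a genotype effect of -0.48 ± 0.17 (SE; limma, adjusted p = 0.34) and PETC one of -0.47 ± 0.15 (SE; limma, adjusted p = 0.30).

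**Figure D3:**
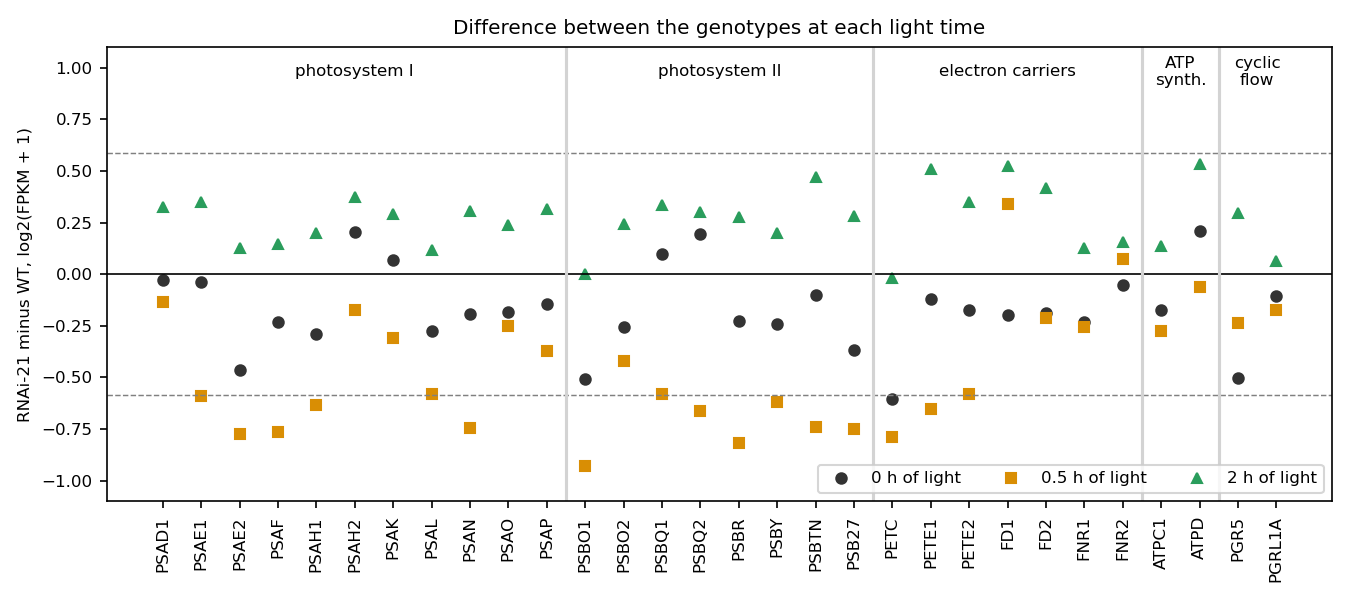
Difference of RNAi-21 minus WT on the log2(FPKM + 1) scale for each of the 30 genes at 0 h (black circles), 0.5 h (orange squares) and 2 h (green triangles) of light, with dashed lines at 1.5-fold either way. Orange squares lie below 0 in 28 genes, 13 of them beyond the lower dashed line, and green triangles lie above 0 in 28 genes and never reach the upper one.

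In photosystem I, the stromal subunits that form the ferredoxin docking site are encoded by PSAD1, PSAE1 and PSAE2. PSAD1 (AT4G02770) had 117, 129 and 429 FPKM at 0, 0.5 and 2 h in RNAi-21, against 119, 142 and 342 FPKM in WT. The genotypes were nearly level in darkness, and its response was 1.87 at 2 h in RNAi-21 and 1.52 in WT. PSAE1 (AT4G28750) had 166, 115 and 506 FPKM at 0, 0.5 and 2 h in RNAi-21, against 170.2, 174 and 397 FPKM in WT, with the lowest of its 6 values in RNAi-21 at 0.5 h. PSAE2 (AT2G20260) had 180.2, 161 and 238 FPKM at 0, 0.5 and 2 h in RNAi-21, against 249, 276 and 218 FPKM in WT. This isoform was the photosystem I gene with the largest genotype differences at 0 and 0.5 h, -0.46 and -0.77, and the one with the smallest 2 h response, 0.40 in RNAi-21 and -0.19 in WT. Its light effect at 2 h was 0.10 ± 0.20 (SE; limma, adjusted p = 0.74), whereas that of PSAE1 was 1.41 ± 0.21 (SE; limma, adjusted p = 0.0022).

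On the lumenal side, PSAF and PSAN take part in docking plastocyanin. PSAF (AT1G31330) had the highest mean of the photosystem I genes, with 285, 241 and 669.7 FPKM at 0, 0.5 and 2 h in RNAi-21, against 334, 409.6 and 606 FPKM in WT. PSAN (AT5G64040) had 154, 116 and 356 FPKM at 0, 0.5 and 2 h in RNAi-21, against 176, 195 and 288 FPKM in WT. In both genes the RNAi-21 value at 0.5 h was the lowest of the 6 libraries and the genotype difference there was -0.76 and -0.74. Both rose at 2 h, by 1.04 ± 0.21 (SE; limma, adjusted p = 0.0083) and 0.95 ± 0.23 (SE; limma, adjusted p = 0.017).

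PSAH, PSAL and PSAO lie where light-harvesting complex II binds photosystem I during state transitions. PSAH1 (AT3G16140) had 159, 136 and 223 FPKM at 0, 0.5 and 2 h in RNAi-21, against 195, 211 and 194 FPKM in WT, and its light effect at 2 h did not pass the test (limma, adjusted p = 0.39). PSAH2 (AT1G52230) had 54.6, 44.7 and 326 FPKM at 0, 0.5 and 2 h in RNAi-21, against 47.3, 50.6 and 251 FPKM in WT. The PSAH2 response was the largest of the photosystem I genes in both genotypes, 2.56 in RNAi-21 and 2.38 in WT, a ratio of 5.97 and 5.31 over the dark library, and it rose by 2.47 ± 0.15 (SE; limma, adjusted p = 4.9e-05). PSAH2 also had the highest genotype difference of the photosystem I genes at 0 h, 0.20, and at 2 h, 0.38. PSAO (AT1G08380) had 188, 184 and 716 FPKM at 0, 0.5 and 2 h in RNAi-21, against 214, 219 and 608 FPKM in WT, with values that lay close together at 0 and 0.5 h within each genotype. PSAL (AT4G12800) had 228, 183 and 517 FPKM at 0, 0.5 and 2 h in RNAi-21, against 276, 275 and 476 FPKM in WT, and its genotype difference at 2 h, 0.12, was the smallest of the photosystem I genes. PSAK (AT1G30380), a subunit on the antenna side of the complex, had 206, 153 and 664 FPKM at 0, 0.5 and 2 h in RNAi-21, against 196, 190.0 and 543 FPKM in WT. PSAK was one of 2 photosystem I genes above 0 in the dark comparison, at 0.07. PSAP (AT2G46820), first described as a photosystem I subunit and also known as the thylakoid curvature protein CURT1B, had the lowest mean of these genes, with 41.0, 44.1 and 112 FPKM at 0, 0.5 and 2 h in RNAi-21, against 45.5, 57.4 and 90.1 FPKM in WT. The light effects at 2 h of PSAO, PSAK, PSAL and PSAP were 1.72, 1.57, 0.98 and 1.20, and all 4 passed in limma.

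In photosystem II, the extrinsic subunits that shield the oxygen-evolving manganese cluster are PSBO, PSBP and PSBQ. PSBO1 (AT5G66570), the main manganese-stabilising isoform, had 437, 387 and 699 FPKM at 0, 0.5 and 2 h in RNAi-21, against 622, 738 and 699 FPKM in WT. The RNAi-21 values at 0 and 0.5 h lay below all 3 WT values, and at 2 h the genotypes were level. Its difference of -0.93 at 0.5 h was the largest of the 30 genes at any time, a ratio of 0.525 of RNAi-21 over WT. PSBO2 (AT3G50820), the minor isoform and the photosystem II gene with the lowest mean, had 34.3, 32.7 and 149 FPKM at 0, 0.5 and 2 h in RNAi-21, against 41.1, 44.1 and 126 FPKM in WT. It had the largest 2 h response of the photosystem II genes, 2.09 in RNAi-21 and 1.59 in WT, and rose by 1.84 ± 0.17 (SE; limma, adjusted p = 0.00024). The PSBO1 light effect was 0.42 ± 0.21 (SE; limma, adjusted p = 0.18), which did not pass.

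PSBQ1 (AT4G21280) had 127, 96.0 and 334 FPKM at 0, 0.5 and 2 h in RNAi-21, against 118, 144 and 264 FPKM in WT. PSBQ2 (AT4G05180) had 163, 105 and 219 FPKM at 0, 0.5 and 2 h in RNAi-21, against 143, 166 and 178 FPKM in WT. Both isoforms were higher in RNAi-21 than in WT in darkness, with differences of 0.10 and 0.20, lower at 0.5 h, with differences of -0.58 and -0.66, and higher again at 2 h. Their light effects at 2 h were 1.27 ± 0.21 (SE; limma, adjusted p = 0.0036) and 0.37 ± 0.23 (SE; limma, adjusted p = 0.26), so that PSBQ1 rose and PSBQ2 did not pass. PSBR (AT1G79040), which helps hold the extrinsic subunits in place, had the highest mean of the 30 genes, with 562, 458 and 1164 FPKM at 0, 0.5 and 2 h in RNAi-21, against 657, 807 and 961 FPKM in WT. Its rise at 2 h, 0.80 ± 0.24 (SE; limma, adjusted p = 0.042), was the closest to the threshold among the genes called.

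The small membrane subunit PSBY (AT1G67740) had 75.0, 78.4 and 261 FPKM at 0, 0.5 and 2 h in RNAi-21, against 88.7, 121 and 227 FPKM in WT. PSBTN (AT3G21055), a small lumenal subunit, had 176, 124 and 522 FPKM at 0, 0.5 and 2 h in RNAi-21, against 189, 208 and 376 FPKM in WT, and its genotype difference at 2 h, 0.47, was the highest of photosystem II. PSB27 (AT1G03600), a lumenal protein that acts in assembly and repair of the complex, had 89.3, 88.1 and 207 FPKM at 0, 0.5 and 2 h in RNAi-21, against 115, 149 and 170.1 FPKM in WT. In PSBTN the lowest value was that of RNAi-21 at 0.5 h, whereas in PSBY and PSB27 the RNAi-21 values at 0 and 0.5 h were alike and both below WT. All 3 rose at 2 h, PSBY by 1.56 ± 0.19 (SE; limma, adjusted p = 0.00083), PSBTN by 1.28 ± 0.25 (SE; limma, adjusted p = 0.0084) and PSB27 by 0.88 ± 0.22 (SE; limma, adjusted p = 0.023).

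Among the electron carriers, PETC (AT4G03280) encodes the Rieske iron-sulphur protein of the cytochrome b6f complex. It had 116, 120.0 and 197 FPKM at 0, 0.5 and 2 h in RNAi-21, against 177, 208 and 199 FPKM in WT. The RNAi-21 values at 0 and 0.5 h lay below all 3 WT values, with differences of -0.60 and -0.79, and at 2 h the genotypes were level. The light effect at 2 h, 0.46 ± 0.19 (SE; limma, adjusted p = 0.10), did not pass.

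Plastocyanin, the copper protein of the lumen, is encoded by PETE1 and PETE2. PETE1 (AT1G76100) had 35.4, 19.4 and 84.2 FPKM at 0, 0.5 and 2 h in RNAi-21, against 38.5, 31.0 and 58.9 FPKM in WT. It had the most negative 0.5 h response of the 30 genes in both genotypes, -0.84 in RNAi-21 and -0.30 in WT, and its light effect at 0.5 h, -0.57 ± 0.24 (SE; limma, adjusted p = 0.43), did not pass with all 6 libraries. Without the WT library at 0.5 h, a fit chosen after seeing the data, it was -0.99 (limma, adjusted p = 0.00087) and rested on the RNAi-21 library alone at that time. PETE2 (AT1G20340) had 168, 143 and 567 FPKM at 0, 0.5 and 2 h in RNAi-21, against 189, 214 and 445 FPKM in WT. Both isoforms rose at 2 h, PETE1 by 0.91 ± 0.24 (SE; limma, adjusted p = 0.027) and PETE2 by 1.49 ± 0.21 (SE; limma, adjusted p = 0.0017).

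The leaf ferredoxins carry electrons away from photosystem I, and FD1 gave the largest 2 h response of the 30 genes. FD1 (AT1G10960) had 89.3, 230.0 and 926 FPKM at 0, 0.5 and 2 h in RNAi-21, against 103, 182 and 644 FPKM in WT. Its values were in the order of light time in both genotypes, with RNAi-21 below WT in darkness and above it at 0.5 and 2 h. FD1 rose at 0.5 h by 1.09 ± 0.18 (SE; limma, adjusted p = 0.027) and at 2 h by 3.0 ± 0.18 (SE; limma, adjusted p = 4.9e-05), and the ratio of the 2 h to the dark library was 10.4 in RNAi-21 and 6.29 in WT. FD2 (AT1G60950), the main leaf isoform, had 145, 181 and 748 FPKM at 0, 0.5 and 2 h in RNAi-21, against 165, 210.2 and 559.7 FPKM in WT. Its 0.5 h responses lay close together, 0.32 in RNAi-21 and 0.35 in WT, and it rose at 2 h by 2.06 ± 0.17 (SE; limma, adjusted p = 0.00018).

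The reductase isoforms had the lowest means of the carriers. FNR1 (AT5G66190) had 29.8, 24.8 and 41.4 FPKM at 0, 0.5 and 2 h in RNAi-21, against 35.2, 29.9 and 37.9 FPKM in WT, and its light effect at 2 h, 0.28 ± 0.13 (SE; limma, adjusted p = 0.15), did not pass. FNR2 (AT1G20020), with the lowest mean of the 30 genes, had 10.3, 9.39 and 19.5 FPKM at 0, 0.5 and 2 h in RNAi-21, against 10.7, 8.89 and 17.4 FPKM in WT. It rose by 0.75 ± 0.12 (SE; limma, adjusted p = 0.0029), the smallest effect among the genes called. Its genotype differences stayed between -0.05 and 0.16.

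In the ATP synthase, ATPC1 (AT4G04640), the main isoform of the rotating gamma subunit, had 60.0, 66.9 and 135 FPKM at 0, 0.5 and 2 h in RNAi-21, against 67.8, 81.2 and 123 FPKM in WT. ATPD (AT4G09650), the delta subunit that joins the catalytic head to the stator, had 32.4, 37.1 and 187 FPKM at 0, 0.5 and 2 h in RNAi-21, against 27.9, 38.9 and 129 FPKM in WT. ATPD was higher in RNAi-21 than in WT at 0 h, by 0.21, and at 2 h, by 0.53, the highest values of the 30 genes in the dark and 2 h comparisons. Both genes rose at 2 h, ATPC1 by 1.00 ± 0.13 (SE; limma, adjusted p = 0.0012) and ATPD by 2.33 ± 0.15 (SE; limma, adjusted p = 6.8e-05), and neither had a 0.5 h response below 0 in either genotype.

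In cyclic electron flow, PGR5 and PGRL1A act together to return electrons from ferredoxin to the plastoquinone pool. PGR5 (AT2G05620) had 18.1, 28.1 and 108 FPKM at 0, 0.5 and 2 h in RNAi-21, against 26.0, 33.2 and 87.7 FPKM in WT. Its values were in the order of light time in both genotypes, and its difference between them was -0.50, -0.24 and 0.30 at the 3 times. PGRL1A (AT4G22890) had 13.7, 13.7 and 35.2 FPKM at 0, 0.5 and 2 h in RNAi-21, against 14.8, 15.6 and 33.6 FPKM in WT, nearly level between 0 and 0.5 h. PGR5 rose at 2 h by 2.12 ± 0.18 (SE; limma, adjusted p = 0.00021) and PGRL1A by 1.21 ± 0.12 (SE; limma, adjusted p = 0.00031).

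The isoform pairs did not keep fixed proportions. PSAE1 made up 47.9, 41.7 and 68.0% of the summed PSAE1 and PSAE2 level at 0, 0.5 and 2 h in the RNAi-21 plants, against 40.6, 38.7 and 64.6% in WT plants. PSAH2 made up 25.5, 24.8 and 59.4% of its pair in the RNAi-21 plants, against 19.5, 19.3 and 56.4% in WT plants. PSAE1 and PSAH2 were thus the minor isoforms in darkness and the major ones at 2 h in both genotypes. PSBO2 made up 7.27, 7.77 and 17.6% of its pair in the RNAi-21 plants, against 6.19, 5.64 and 15.2% in WT plants, and PSBO1 remained the major isoform in all 6 libraries. PSBQ1 made up 43.7, 47.8 and 60.4% in the RNAi-21 plants, against 45.4, 46.4 and 59.8% in WT plants. In these 4 pairs the share of the more strongly induced isoform was above its dark value at 2 h in both genotypes.

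FD1 made up 38.2, 55.9 and 55.3% of the summed ferredoxin level in the RNAi-21 plants, against 38.3, 46.3 and 53.5% in WT plants. It was already the major isoform at 0.5 h in RNAi-21 and not yet in WT. PETE1 made up 17.4, 11.96 and 12.9% of plastocyanin in the RNAi-21 plants, against 16.9, 12.7 and 11.7% in WT plants, the pair whose minor isoform lost share in the light. FNR2 made up 25.7, 27.5 and 32.0% of the reductase in the RNAi-21 plants, against 23.3, 22.9 and 31.5% in WT plants. These shares have no replicate error, and how the authors' counting split reads between near-identical copies is not given in the sources used here, so the levels of single isoforms are uncertain. PSAD1 has no such share because PSAD2 was not analysed here.

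**Figure D4:**
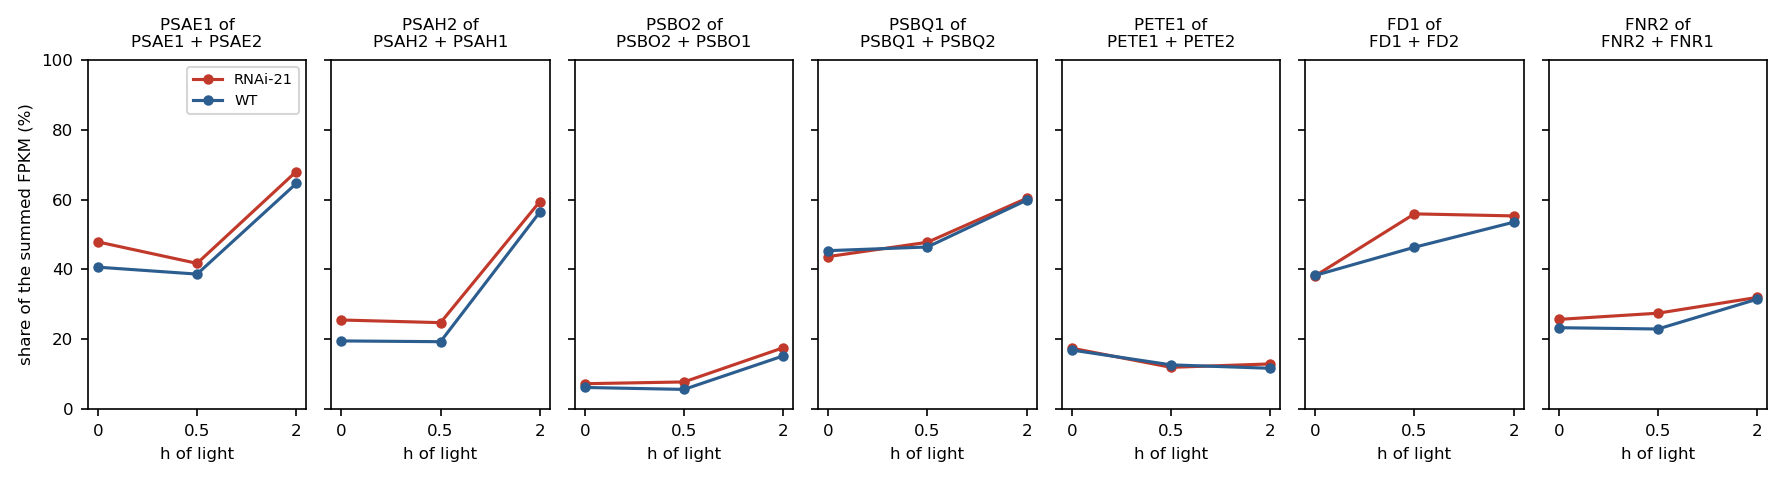
Share in percent of the summed FPKM of each isoform pair that belongs to the isoform named first, at 0, 0.5 and 2 h of light, with RNAi-21 in red and WT in blue and 1 library per point. The PSAE1 and PSAH2 lines cross the middle of the axis by 2 h in both genotypes, and the widest gap between the genotypes for FD1 is at 0.5 h, 55.9% in RNAi-21 against 46.3% in WT.

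Other nuclear genes of the same machinery moved in both directions at 2 h. Of 13 kept genes for other subunits and isoforms, 6 rose and 1 fell at 2 h in limma, where 17.1% of all genes rose and 15.8% fell. PSB28, whose counterpart in cyanobacteria acts in photosystem II assembly, had 7.90, 14.0 and 99.2 FPKM at 0, 0.5 and 2 h in RNAi-21, against 9.21, 14.4 and 66.3 FPKM in WT and rose by 3.11 ± 0.19 (SE; limma, adjusted p = 5.2e-05). PSB33, a protein associated with photosystem II, rose by 1.80 ± 0.11 (SE; limma, adjusted p = 6.1e-05) and CURT1C, a curvature protein, by 1.23 ± 0.19 (SE; limma, adjusted p = 0.0025). The 1 that fell was RFNR2, a root-type ferredoxin-NADP reductase, with an effect of -0.62 ± 0.13 (SE; limma, adjusted p = 0.0091). Their median genotype difference was 0.01, -0.11 and 0.25 at 0, 0.5 and 2 h, so at 0.5 h it lay nearer 0 than that of the 30 genes.

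The chloroplast NDH complex provides a second route of cyclic flow. Of its 12 nuclear subunits examined, 9 rose at 2 h and 0 fell, where 17.1% of all genes rose and 15.8% fell. The largest effects were in PNSB3 at 2.23 ± 0.18 (SE; limma, adjusted p = 0.00014), PNSB1 at 2.06 ± 0.13 (SE; limma, adjusted p = 5.5e-05) and PNSL3 at 1.96 ± 0.19 (SE; limma, adjusted p = 0.00031). These were low transcripts, and PNSB3 had 1.71, 2.81 and 14.0 FPKM at 0, 0.5 and 2 h in RNAi-21, against 1.59, 3.04 and 9.37 FPKM in WT. Of 19 kept genes of assembly and regulation, 7 rose and 1 fell, beside the same shares of 17.1% and 15.8% of all genes. STN7, the kinase of state transitions, rose by 2.02 ± 0.15 (SE; limma, adjusted p = 0.0001), LQY1, which acts in photosystem II repair, by 1.99 ± 0.16 (SE; limma, adjusted p = 0.00014) and HCF164, a thioredoxin-like protein needed for cytochrome b6f assembly, by 1.22 ± 0.13 (SE; limma, adjusted p = 0.00044). The phosphatase TAP38, which opposes STN7, fell, with an effect of -0.40 ± 0.12 (SE; limma, adjusted p = 0.036). The median genotype difference at 0, 0.5 and 2 h was -0.05, -0.11 and 0.32 for the NDH genes and -0.13, -0.17 and -0.05 for the assembly and regulation genes. In these 3 lists 0 genes passed the limma genotype test, where 0.168% of all genes passed. An unadjusted p under 0.05 was seen in 1 gene of other subunits, 1 of NDH and 5 of assembly and regulation, where 2294 of all 18441 genes were under it.

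Of 32 plastid loci for partner subunits of the same complexes, 5 were listed. Of these, 4 were at least 2-fold lower in RNAi-21 at 0 and 0.5 h, and 2 were at 2 h. Of all genes, and not of organelle loci alone, 0.396%, 0.428% and 0.222% were at 0, 0.5 and 2 h. ATCG00130, 1 of the 4, was low in every library. It had 0.574, 0.333 and 1.02 FPKM at 0, 0.5 and 2 h in RNAi-21, against 3.32, 1.83 and 2.34 FPKM in WT. The median differences over the 5 loci were -1.82, -1.42 and -0.73. The fifth locus, ATCG00210, went the other way: it had 0.280, 2.21 and 1.36 FPKM at 0, 0.5 and 2 h in RNAi-21, and was listed at 0 at all 3 times in WT. ATCG00280, the most abundant, had 8.94, 11.5 and 40.4 FPKM at 0, 0.5 and 2 h in RNAi-21, against 52.4, 42.2 and 66.4 FPKM in WT. ATCG00720 had 3.05, 2.65 and 5.05 FPKM in RNAi-21, against 13.3, 8.80 and 11.3 FPKM in WT. In both loci all 3 RNAi-21 values lay below all 3 WT values. ATCG00720 was the 1 of 5 to pass the genotype test, with an effect of -1.42 (limma, adjusted p = 0.040). Organelle-encoded loci made up 0.128 to 0.197% of the library sums in RNAi-21 and 0.220 to 0.255% in WT. With so small a share and 5 of 32 loci listed, what the plastid differences reflect was not tested.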

How the data were processed

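Gene expression was measured by RNA sequencing in 6 libraries, 1 per group of genotype and light time, grouped by their titles. Libraries were made from TRIzol-extracted total RNA by Illumina's standard procedure, per the labels' protocols. HISAT and Bowtie2 are named without versions in the submitters' processing notes, whereas for the quantifier, genome build, annotation and strand setting the sources used here give nothing. The authors deposited 1 table of values per library, read here as FPKM. No header names the unit, which was inferred from non-integer values with unequal sums, and a partial table of TPM would look alike. No counts were used and low values showed no whole-read steps in the pair of libraries examined, so depth is unknown and counting intervals are left out.

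The fit used log2(FPKM + 1) of genes that reached an FPKM of 1 in any library. Single comparisons of 1 library with 1 library were described by differences, by counts at 2-fold and 1.5-fold and by medians, beside the same over all genes. Effects of genotype and light time came from an additive fit of all 6 libraries in limma 3.58.1 (R 4.3.3) with a variance trend, 2 residual and 4.927 prior degrees of freedom, and Benjamini-Hochberg adjustment over all 18441 genes at 0.05. Its error measures how far the difference varied over the times, so its p-values do not measure the spread between plants. The fit was also run on simulated data with 200 changed genes. The outcome is not given here, and no call reported here rests on it. Members and lists were chosen with earlier results of these data known. All 36 members were found in RefSeq's TAIR10.1 gene table, used for names only, and loci without a symbol there are given by identifier.

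By rule, each member is accounted for, and values in all 6 libraries are given for the extremes of level, genotype difference and 2 h response in each complex, for isoform pairs and for members called in the genotype or 0.5 h test. Of other lists, counts, medians and up to 3 genes with the largest effect are given. Alternatives were a pseudocount of 0.1, no filter or a filter of 5, median-ratio scaling, library totals equalised without organelle-encoded genes, a 1.5-fold threshold, no variance trend and fits without 1 light time. Fits and comparisons without the WT library at 0.5 h were added after seeing the data.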

Additional observations from a re-analysis of the deposited data

Results flagged for a closer look

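Between the genotypes, the responses to 0.5 h of light had opposite signs in 16 of the 30 photosynthetic genes, below 0 in RNAi-21 and above 0 in WT. Over all genes, 23.5% showed this pattern. The WT side rests on the 0.5 h library that stood apart in seed storage transcripts. With library totals equalised, 18 of the 30 genes were below 0 in RNAi-21, in place of 21. With 1 library on each side the difference in sign was not tested. The direction of the genotype difference also changed between light times in 26 of the 30 genes, where RNAi-21 was below WT at 0.5 h and above it at 2 h. Over all genes, 20.9% showed this change, which uses the same WT library at 0.5 h. That change was not tested either.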

How the results depend on the processing

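No paired analysis was possible because each group had 1 library and the labels give no replicate numbers. The limma fit compares the genotypes within each light time. Depth is unknown, so what it limits could not be given. Among the values that answer a comparison, 199 under the alternatives stayed close to the reported value, 10 moved and none was reversed. A median was taken as moved beyond 0.1 on the log2 scale because no replicate spread exists. Counts were not held to that tolerance and have no sign to reverse. The 199 include counts of 0 that stayed at 0. Some counts among them changed, such as 18 in place of 21 genes below 0 at 0.5 h in RNAi-21 with library totals equalised. The filter settings could not change the medians and counts of single comparisons, since every member passed each filter, and those values are among the 199. At 1.5-fold in place of 2-fold, 1 member was lower in RNAi-21 at 0 h and 13 at 0.5 h. Against darkness, 2 members were higher and 2 lower at 0.5 h in RNAi-21, 1 was higher at 0.5 h in WT and 22 were higher at 2 h in WT. Over all 18441 genes the same counts were 760, 535, 488 and 2733. With library totals equalised, the median genotype difference at 2 h was 0.17 and the median 2 h response of RNAi-21 was 1.18. With the WT library at 0 h in place of that at 0.5 h, a comparison that differs in light time as well as genotype, the median difference was -0.37. Without the WT library at 0.5 h, 1 member fell at 0.5 h, PETE1, with an effect of -0.99 (limma, adjusted p = 0.00087). That fit rests on RNAi-21 alone at 0.5 h, assumed to vary like the other groups. The cause was not tested. Effects not called changed sign in 25 of 300 genotype values, 10 of them without the 0.5 h libraries and 10 without the WT 0.5 h library. These 2 settings give the same genotype effects, -0.25 in PSBO1 and -0.31 in PETC in each, so they are 1 check and not 2. Light values at 0.5 h that were not called changed sign in 15 of 240, and no called effect did. PETC, not called at 2 h with all 6 libraries in limma (adjusted p = 0.10), passed without the 0.5 h libraries (0.46, adjusted p = 0.031). Its effect was also 0.46 without the WT 0.5 h library, since leaving out 0.5 h libraries changes only the error of a 2 h effect. The 24 genes that rose at 2 h and FD1 at 0.5 h were the same genes in every alternative run.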
